A study of Mus musculus with 33 samples.

Results

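The mRNA of 10 genes that carry lipids in the brain or move receptors and membrane through the cell was followed in the CA1 region of the mouse hippocampus, out of 38355 genes in the count files of aged mice and 40678 loci in the expression files of young mice. The members were named by symbol: Apoe, Clu, Abca1, Abca7, Abcg1, Lrp1, Sorl1, Apod, Picalm and Bin1. The rule used no measured value, but the genes were chosen with earlier results of these data known. All 10 were found in both sets of files and all 10 passed the filters on low values in both. The study asked what JQ1, a small molecule that blocks the bromodomains by which BET proteins read acetylated histones, does to CA1 gene expression in normal mice and in a mouse model of Alzheimer's disease.

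The aged mice were 8 to 10 months old and had been injected for 10 days. There were 6 APP mice given JQ1 at 50 mg per kg and 6 APP mice given the vehicle, 10% DMSO, and of 5 vehicle-treated WT mice in the labels 4 had values, replicate 2 being not analysed here. APP mice are of the APP/PS1-21 line on a C57B/6 background, in which the neuronal Thy1 promoter drives the transgenes, human APP with the Swedish mutation among them. The strain label of the WT mice also names that line, and they were taken as WT from their titles. The young mice were 3-month-old C57B/6JRj mice without a transgene, 8 given JQ1 at 50 mg per kg and 8 given 10% DMSO for 13 days. All injections were intraperitoneal. There was no JQ1-treated aged WT group.

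Apolipoprotein E (Apoe), clusterin (Clu, also called apolipoprotein J) and apolipoprotein D (Apod) are the secreted lipid carriers of the brain. Astrocytes make most of the apolipoprotein E, and microglia around amyloid plaques make it too. The ATP-binding cassette transporters Abca1 and Abcg1 load cholesterol and phospholipid on to such particles, and Abca7 is a relative of Abca1 that moves phospholipid. Lrp1 and Sorl1 are lipoprotein and VPS10P family receptors that bind or sort lipoproteins and the amyloid precursor protein, and Picalm and Bin1 act on clathrin coats and on membrane curvature during endocytosis. Human variants near APOE, CLU, ABCA7, SORL1, PICALM and BIN1 are associated with the risk of late-onset Alzheimer's disease.

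Between 14605459 and 25339482 reads per aged library were counted on genes, and the 10 genes had between 343 reads (Abca7) and 97268 reads (Apoe) in a library. Reads outside annotated exons had a median share of 17.97% in WT mice, 18.64% in APP mice given vehicle and 21.45% in APP mice given JQ1. The depth of the young libraries is unknown, because only FPKM (fragments scaled by gene length and sequencing depth) were deposited. CPM below are counts scaled to library size with TMM factors. Before those factors, 3 reads were worth 0.1184 to 0.2054 CPM, and these limits cover counting error only.

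One aged library went against its label. In the library labelled JQ1-treated APP replicate 4, Thy1, whose promoter drives the transgenes, stood at 819.8 CPM, against 1618 to 2342 CPM in the other 11 APP libraries and 840.6 to 1070 CPM in the 4 WT libraries. App was 1781 CPM, below both the other APP libraries (2070 to 2716 CPM) and the WT libraries (1853.5 to 1991.6 CPM). The summed level of 12 microglial markers was 486.1 CPM in this library, inside the WT range of 436.9 to 489.1 CPM and below the 1002 to 2012 CPM of the other APP libraries. The main results that rest on this library are therefore also given without it. Vehicle-treated WT replicate 4 also stood apart, with a summed level of 3206 CPM for 7 choroid plexus markers, against 24.4 to 143.1 CPM in the other 15 aged libraries.

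**Figure D1:**
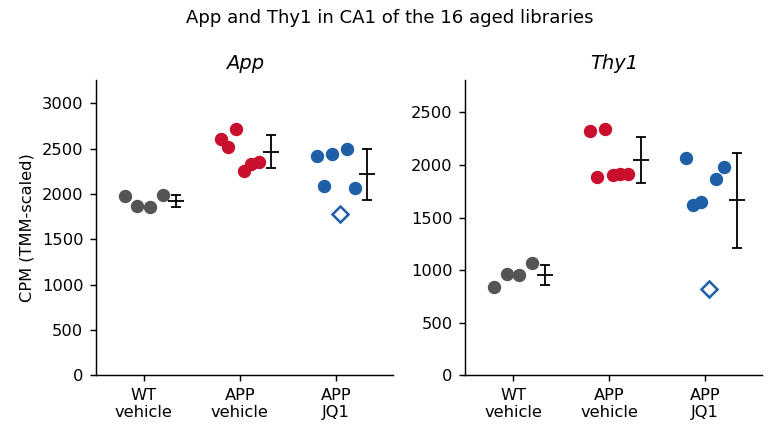
CPM of App and Thy1 in each aged library by group, with the mean and SD of each group as a bar beside the points. The open diamond is the library labelled JQ1-treated APP replicate 4, which lies below the lowest WT library for both genes.

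Per kilobase of exons, the 10 genes covered a wide range of levels. In vehicle-treated WT mice (n = 4) Apoe had the highest level, 655.1 ± 30.6 CPM per kb (mean ± SD), followed by Clu at 279.3 ± 33.5 and Bin1 at 66.1 ± 2.4 CPM per kb. Sorl1 (44.7 ± 2.7), Apod (40.9 ± 9.1) and Lrp1 (30.3 ± 3.9 CPM per kb) came next, and neighbours among these 3 had overlapping ranges. Picalm (10.6 ± 0.69) and Abcg1 (7.63 ± 0.30 CPM per kb) were lower and did not overlap with their neighbours. Abca7 (4.59 ± 0.66) and Abca1 (3.91 ± 0.33 CPM per kb) were lowest and overlapped. In vehicle-treated young mice (n = 8), Apoe at 1085 ± 101.5 FPKM and Clu at 553.1 ± 25.3 FPKM were again the highest 2 and Abca1 at 5.96 ± 0.78 FPKM and Abca7 at 3.10 ± 0.44 FPKM the lowest 2. Unlike in aged WT mice, Picalm (42.0 ± 2.9 FPKM) overlapped there with Lrp1 (56.9 ± 7.5 FPKM). The aged levels were divided by the joined length of all annotated exons, 15.73 kb for Picalm. The scales of the aged and young mice come from different processing and were not compared with each other.

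The comparison of vehicle-treated APP with vehicle-treated WT mice asks what the transgenic model itself does to these genes. The lipid carrier Apoe and the transporter Abca1 were higher in APP mice, and Clu was higher in every APP mouse without passing the threshold. With edgeR, 2 of the 10 members had an adjusted p under 0.05, beside 2.57% of the 16962 genes tested, and the median log2 difference of the 10 was 0.37 against 0.0093 over all genes. The values of 4 of the 10, Apoe, Clu, Abca1 and Lrp1, did not overlap between these groups, beside 6.99% of all genes tested. In bulk tissue, more cells of a type and more RNA per cell cannot be told apart.

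Apoe (chr7:19696109-19699188, mm10, minus strand, ENSMUSG00000002985) had 1340, 1458, 1456 and 1348 CPM in the 4 WT mice. In vehicle-treated APP mice it ranged from 1909 to 3806 CPM with a median of 2854 CPM. Every APP mouse was above every WT mouse, and the APP mice were the more variable group, with an SD of 621 CPM against 65.4 CPM. The log2 difference was 1.04 ± 0.19 (SE), a 2.05-fold higher level (95% CI 1.56 to 2.70), with an adjusted p of 0.0083 in edgeR's quasi-likelihood test and an exact two-sided permutation p of 0.0048, the smallest that 6 against 4 allows. With replicate numbers as a block the adjusted p was 0.054, and 0.055 with the block and GC and length offsets (edgeR). Without the library labelled JQ1-treated APP replicate 4, which enters the shared estimate of the spread, the difference was 1.02 with an adjusted p of 0.00040 in edgeR.

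Abca1 (chr4:53030787-53159895, minus strand), which exports cholesterol to apolipoproteins, had 37.2, 45.1, 40.9 and 38.8 CPM in WT mice. In vehicle-treated APP mice it ranged from 52.6 to 91.0 CPM with a median of 59.6 CPM. The groups did not overlap, and 2 of the 6 APP mice, at 88.4 and 91.0 CPM, stood well above the other 4. Its log2 difference was 0.74 ± 0.19, a 1.67-fold higher level, with an adjusted p of 0.044 in edgeR and an exact permutation p of 0.014. The call was lost in 9 of the 16 fits that each left out 1 library, with adjusted p-values from 0.026 to 0.18 over the 16 (edgeR). These 9 were the 4 WT mice, JQ1-treated APP replicates 3 and 6 and vehicle-treated APP replicates 1, 2 and 4. The 9 fits called 0.889% to 2.66% of all genes, against 2.57% with all libraries.

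Clu (chr14:65968483-65981547, plus strand), an extracellular chaperone that also carries lipid, had 790.2, 1014, 1044 and 991.4 CPM in WT mice. In vehicle-treated APP mice it ranged from 1305 to 1986 CPM with a median of 1549 CPM. All 6 APP mice were above all 4 WT mice. Clu differed by 0.71 ± 0.19 on the log2 scale, with an adjusted p of 0.059 in edgeR that became 0.015 without the library labelled JQ1-treated APP replicate 4, and DESeq2 on all libraries also called it. Without that library 3 members were called, beside 3.55% of all genes tested. The WT library with choroid plexus markers had the highest Clu of its group. Without both doubted libraries, Clu had an adjusted p of 0.032 and Abca1 one of 0.069 (edgeR).

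**Figure D2:**
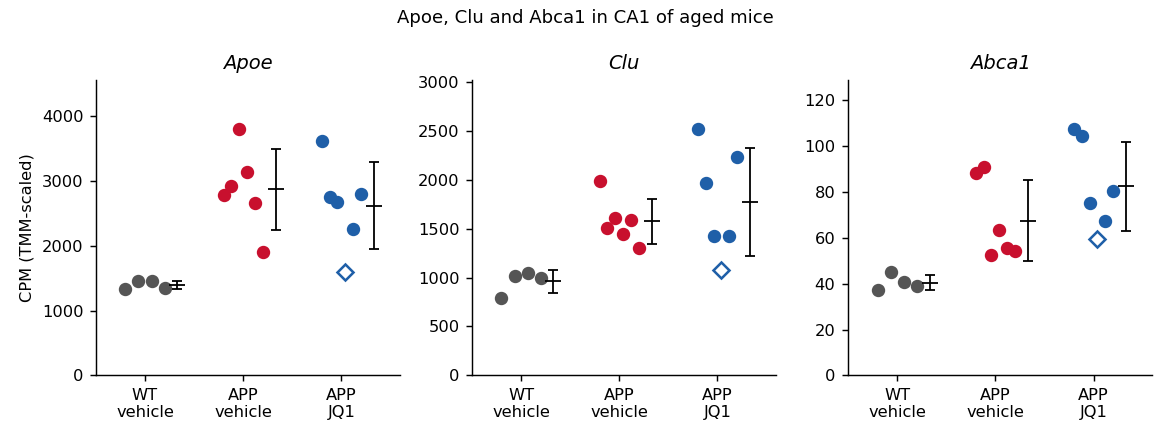
CPM of Apoe, Clu and Abca1 in each aged mouse by group, with mean and SD. Every vehicle-treated APP mouse and every library labelled JQ1-treated APP lies above the 4 WT mice for the 3 genes, and the open diamond, the library labelled JQ1-treated APP replicate 4, is the lowest APP library for Apoe and Clu, and for Abca1 3 vehicle-treated APP mice lie below it.

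The sequences upstream of the genes called in this comparison are shown for context, as listed by RefSeq for GRCm38.p6. Promoter windows were listed for 7 of the 10 members, not for Clu, Abcg1 and Bin1. Each stretch below holds the 250 bases before a start site, read 5′ to 3′ on the gene's strand, and Apoe has 3 listed starts, of which the most upstream is shown. Capitals mark the GC box GGGCGG, bound by Sp1 family factors, and the E-box CACGTG, searched on both strands.
Apoe, chr7:19699189-19699438, minus strand: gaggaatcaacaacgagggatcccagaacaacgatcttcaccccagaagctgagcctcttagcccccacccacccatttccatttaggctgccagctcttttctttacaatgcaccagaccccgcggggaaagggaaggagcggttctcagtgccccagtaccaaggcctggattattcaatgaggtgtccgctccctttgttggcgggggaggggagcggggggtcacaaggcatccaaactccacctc
Abca1, chr4:53159896-53160145, minus strand: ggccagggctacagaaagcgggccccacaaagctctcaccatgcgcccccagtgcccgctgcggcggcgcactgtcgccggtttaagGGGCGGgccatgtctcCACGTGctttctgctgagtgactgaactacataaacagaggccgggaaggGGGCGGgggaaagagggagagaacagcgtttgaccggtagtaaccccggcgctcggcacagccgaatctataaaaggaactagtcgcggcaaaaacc
The Abca1 window held 2 GC boxes and 1 E-box, and none of the 3 Apoe windows held either. Over all 32851 windows of 300 bases, 35.7% held GGGCGG and 7.15% held CACGTG. The nuclear receptor hexamer AGGTCA, held by 16.3% of windows, occurred among the 7 members only in Picalm, and the cyclic AMP response element TGACGTCA, held by 1.79%, in none. These are matches of letters in the windows and were not tested for binding.

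The remaining members did not pass the test between vehicle-treated APP and WT mice. Lrp1, a large endocytic receptor for apolipoprotein E, had 433.2, 577.9, 552.6 and 581.2 CPM in WT mice and 584.6 to 936.2 CPM (median 624.6) in APP mice. The ranges did not overlap but nearly met, and the log2 difference was 0.37 ± 0.16 with an adjusted p of 0.28 in edgeR. Abca7 had 25, 30.6, 33.2 and 35.3 CPM in WT mice and 33.8 to 50.75 CPM (median 38.6) in APP mice. These overlapped, and the log2 difference was 0.36 ± 0.14 with an adjusted p of 0.22 in edgeR. The GC and length correction reduced these differences to 0.20 for Lrp1 and 0.18 for Abca7. Sorl1, which sorts the amyloid precursor protein, had 484.9, 514.5, 480.1 and 545.6 CPM in WT mice and 355.9 to 563.1 CPM (median 438.6) in APP mice, with 5 of the 6 APP mice below the lowest WT mouse. Its log2 difference was −0.20 ± 0.13 with an adjusted p of 0.53. Apod had 103.2, 97.9, 138.2 and 82.8 CPM in WT mice and 105.0 to 240.9 CPM (median 139.9) in APP mice, and its log2 difference of 0.52 had a wide SE of 0.32. Picalm, Bin1 and the cholesterol transporter Abcg1 had log2 differences of −0.013 ± 0.071, 0.026 ± 0.066 and 0.050 ± 0.10, with 95% CIs within −0.16 to 0.26, and the GC and length correction turned their signs (0.057, −0.15 and −0.078). That correction also moved the median log2 difference of all genes from 0.0093 to −0.067.

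APP mice given JQ1 or vehicle were compared to ask what the drug does on the background of amyloid. None of the 10 genes passed the threshold in edgeR, beside 1.08% of the 16962 genes tested, and 3 had an unadjusted p under 0.05, namely Abca7, Bin1 and Lrp1, beside 17.6% of all genes. DESeq2 called 2, Abca7 and Bin1, both lower with JQ1, beside 5.24% of the genes it tested. The median log2 difference of the 10 was −0.049 against −0.0011 over all genes, and no member had groups that did not overlap, beside 2.03% of all genes, or 2.23% without the library labelled JQ1-treated APP replicate 4. Without the library labelled JQ1-treated APP replicate 4, edgeR and DESeq2 both called 0 of the 10, beside 0.431% of genes called by edgeR and 2.75% by DESeq2, and the unadjusted p was under 0.05 for 3 of them, Abca1, Abca7 and Bin1, beside 13.6% of all genes.

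Abca7 (chr10:79996494-80015572, plus strand) had 36.9, 33.2, 26.1, 22.9, 27.9 and 28.9 CPM in JQ1-treated APP replicates 1 to 6. In vehicle-treated APP mice it had 37.8, 50.75, 39.3, 35.4, 33.8 and 42.6 CPM. Of the 6 JQ1 libraries, 5 lay below the lowest vehicle-treated mouse, the lowest being the library labelled replicate 4, and replicate 1 lay among the vehicle-treated mice. The log2 difference was −0.44 ± 0.12, a level 26.5% lower, with an adjusted p of 0.079 in edgeR and an exact permutation p of 0.0087. It was −0.38 ± 0.12 with an adjusted p of 0.18 in edgeR without the library labelled replicate 4. A correction for GC content and length of genes reduced the difference to −0.19 (adjusted p = 0.49, edgeR).

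Bin1 (chr18:32377230-32435737, plus strand), which shapes curved membrane, showed a small difference. It had 270.3, 247.4, 238.7, 235.7, 241.7 and 252.8 CPM with JQ1 and 277.2, 275.6, 298.6, 267.6, 262.1 and 280.2 CPM with vehicle in replicates 1 to 6. Of the JQ1 libraries 5 of 6 were below the lowest vehicle-treated mouse. Bin1 differed by −0.16 ± 0.059 (log2) with an adjusted p of 0.17 in edgeR, 0.34 without the library labelled replicate 4 and 0.049 in DESeq2 on all libraries. With the GC and length correction it was −0.0077.

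Lrp1 (chr10:127538161-127621148, minus strand) had 642.5, 667.1, 478.9, 432.8, 635.7 and 454.0 CPM with JQ1, 3 of them below the lowest vehicle-treated mouse at 584.6 CPM. The log2 difference was −0.33 ± 0.14 (adjusted p = 0.23, edgeR) and −0.26 ± 0.14 (adjusted p = 0.42, edgeR) without the library labelled replicate 4. With the GC and length correction it was −0.18, and −0.15 with that correction and without that library. Within groups, Lrp1 and the share of reads outside exons were related across the 16 aged libraries with r = 0.81 (0.78 without the library labelled replicate 4), and Abca7 and that share with r = 0.62 (0.54). The part of that share in these differences was not tested.

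Picalm (chr7:90130213-90213465, plus strand), a clathrin adaptor, had 162.1 to 194.4 CPM (median 182.3) with JQ1 and 152.7 to 173.3 CPM (median 167.8) with vehicle. Of the JQ1 libraries 4 of 6 lay above the highest vehicle-treated mouse. Picalm had a log2 difference of 0.12 ± 0.064 (adjusted p = 0.35, edgeR), and it turned to −0.12 with the GC and length correction. It was 0.12 ± 0.070 without the library labelled replicate 4.

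**Figure D3:**
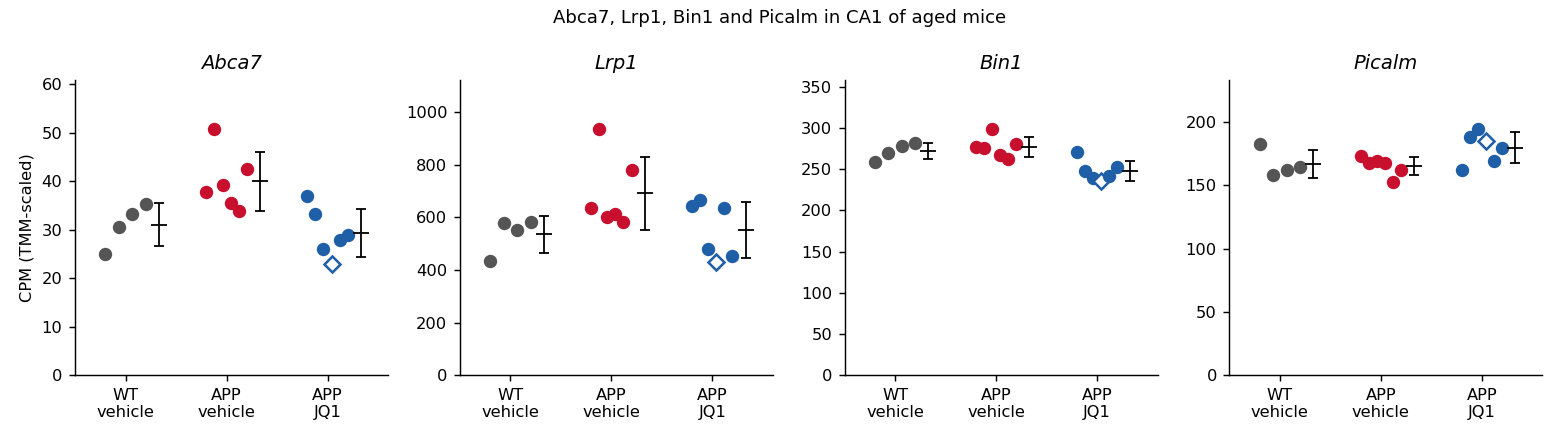
CPM of Abca7, Lrp1, Bin1 and Picalm in each aged mouse by group, with mean and SD, the open diamond being the library labelled JQ1-treated APP replicate 4. Most JQ1 libraries lie below the vehicle-treated APP mice for Abca7 and Bin1, but no difference passed edgeR's threshold, and the direction for Picalm flips with a GC and length correction.

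The carriers Apoe, Clu and Apod did not separate JQ1-treated from vehicle-treated APP mice. Apoe had 1596 to 3621 CPM (median 2721) with JQ1, the lowest being the library labelled replicate 4, and overlapped widely with the vehicle-treated mice. Its log2 difference was −0.13 (95% CI −0.47 to 0.21), −0.018 (95% CI −0.31 to 0.27) without that library and 0.091 with the GC and length correction. Clu had 1075 to 2518 CPM (median 1699) and a log2 difference of 0.17 (95% CI −0.18 to 0.53), or 0.29 (95% CI −0.019 to 0.59) without that library. Abca1 had 59.5 to 107.5 CPM (median 77.8) and a log2 difference of 0.29 ± 0.16 (adjusted p = 0.38, edgeR), which was 0.37 ± 0.16 (adjusted p = 0.32, edgeR) without the library labelled replicate 4. Apod varied most, from 89.5 to 285.1 CPM with JQ1, and its difference of 0.056 (95% CI −0.55 to 0.66) became −0.0045 with the GC and length correction and 0.18 without the library labelled replicate 4. Abcg1 had 49.2 to 62.9 CPM (median 55.9) with JQ1 and 51.2 to 72.9 CPM (median 54.0) with vehicle, and Sorl1 318.7 to 481.3 CPM (median 456.5) with JQ1. The log2 difference was −0.040 ± 0.091 for Abcg1, which became 0.048 with the GC and length correction, and −0.058 ± 0.12 for Sorl1. Without the library labelled replicate 4 these were −0.071 and −0.091.

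JQ1-treated APP mice were also set against vehicle-treated WT mice, the same WT mice as above, so the 2 comparisons are not independent. Apoe, Clu and Abca1 were called, all higher, 3 of 10 members beside 2.06% of genes tested with edgeR, and the same 3 had values that did not overlap, beside 3.71%. The log2 differences were 0.90 ± 0.19 for Apoe (adjusted p = 0.018), 0.89 ± 0.19 for Clu (adjusted p = 0.023) and 1.03 ± 0.19 for Abca1 (adjusted p = 0.014, edgeR). Without the library labelled JQ1-treated APP replicate 4 they were 1.01, 0.99 and 1.10, with adjusted p-values of 0.00063, 0.0012 and 0.0013 in edgeR, beside 3.84% of genes called, and the values of the same 3 did not overlap, beside 7.71%. With that library kept and WT replicate 4 left out, the 3 calls were lost (adjusted p of 0.062, 0.065 and 0.058, edgeR). They were also lost without WT replicate 3 or 5, while without WT replicate 1 Abca1 alone was called (0.048, edgeR). Without WT replicates 3, 4, 5 and 1 in turn, 0.144%, 0.174%, 0.0637% and 0.883% of all genes were called, against 2.06% with all libraries. The Clu call was also lost without JQ1-treated APP replicate 2 (0.056) or 6 (0.052), beside 1.08% and 1.31% of all genes called (edgeR). Without both the library labelled JQ1-treated APP replicate 4 and WT replicate 4 all 3 were called, beside 2.87% of all genes (edgeR). The other 7 members had log2 differences between −0.26 for Sorl1 and 0.57 for Apod, with adjusted p-values of 0.37 or more. Sorl1 passed in 1 alternative, at −0.39 (adjusted p = 0.032, edgeR) with the GC and length correction and without the library labelled JQ1-treated APP replicate 4.

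In young WT mice JQ1 left no detectable difference in these genes. None of the 10 was called by limma on log2(FPKM + 0.1), beside 0.00543% of the 18420 loci tested (1 locus). None had an unadjusted p under 0.05, beside 857 of the 18420 loci. Apoe ranged from 866.7 to 1194 FPKM (median 1128) with JQ1 and from 906.5 to 1189 FPKM (median 1109) with vehicle. Clu ranged from 501.9 to 605.9 FPKM (median 551.2) with JQ1 and from 509.8 to 581.7 FPKM (median 553.0) with vehicle. The groups overlapped almost wholly for both carriers. Abca7 had 2.55 to 4.52 FPKM (median 3.00) with JQ1 and 2.23 to 3.66 FPKM (median 3.18) with vehicle, Abca1 4.61 to 7.60 (median 6.17) against 4.59 to 7.21 FPKM (median 5.86), and Abcg1 14.4 to 16.7 (median 15.8) against 13.8 to 17.6 FPKM (median 15.04). Among the receptors, Lrp1 had 46.0 to 68.4 FPKM (median 59.0) with JQ1 and 44.6 to 66.0 FPKM (median 57.5) with vehicle, and Sorl1 55.2 to 83.8 (median 65.7) against 54.0 to 82.3 FPKM (median 65.0). Picalm had 37.1 to 46.1 FPKM (median 44.6) with JQ1 and 39.0 to 48.2 FPKM (median 40.9) with vehicle, Bin1 79.3 to 98.7 (median 88.2) against 75.6 to 96.5 FPKM (median 89.0), and Apod 77.4 to 154.5 (median 112.4) against 92.7 to 159.5 FPKM (median 116.8). Bin1 had 2 loci, and the one with the higher mean was used, the other having a mean of 4.90 FPKM. No member had groups that did not overlap, beside 0.0271% of loci. The fitted log2 differences lay between −0.011 and 0.059, and their 95% CIs between −0.30 and 0.30. For Abca7 the difference was 0.059 (95% CI −0.18 to 0.30). Whether the response to JQ1 differed between young WT and aged APP mice was not tested, since the 2 experiments differ in age, genotype, days of treatment and unit, among others. The study's methods describe the purchased C57Bl/6j mice as males and the APP mice used for behaviour as females.

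**Figure D4:**
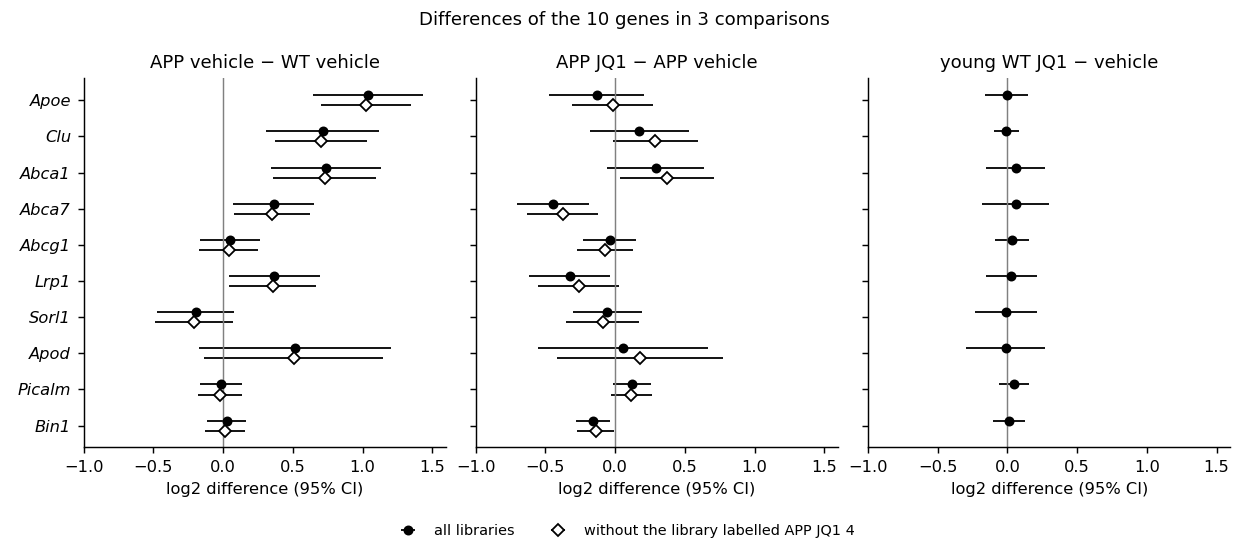
Log2 differences of the 10 genes with 95% confidence intervals in vehicle-treated APP against WT mice, in JQ1-treated against vehicle-treated APP mice and in young WT mice, filled circles with all libraries and open diamonds without the library labelled JQ1-treated APP replicate 4. Apoe, Clu and Abca1 lie furthest to the right in the first panel, where the intervals of Abca7 and Lrp1 also exclude 0. Abca7 lies furthest to the left in the second, where the intervals of Lrp1 and Bin1 also exclude 0 with all libraries. Without the library labelled JQ1-treated APP replicate 4, those of Abca1 and Bin1 also exclude 0 there. The intervals of all 10 genes include 0 in the third.

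The 3 wider lists of genes of the same pathways held few calls, all of them higher. Their counts can be read beside the 2.57% of all genes called between vehicle-treated APP and WT mice and the 1.08% called with JQ1 in APP mice. Of 30 genes of lipid transport and lipidation, 1 was higher in vehicle-treated APP than in WT mice, Npc2, a lysosomal cholesterol carrier, at 125 ± 22.4 against 59.6 ± 3.1 CPM (log2 difference 1.07, adjusted p = 0.0088, edgeR). The median of that list was 0.18 against 0.0093 over all genes. With JQ1 in APP mice 1 of the 30 was higher, Abca5, at 68.5 ± 6.0 against 50.75 ± 6.8 CPM (log2 difference 0.43, adjusted p = 0.045, edgeR), and it had an adjusted p of 0.11 without the library labelled replicate 4. Against WT mice, JQ1-treated APP mice had 2 genes higher, Npc2 and the transporter Abca9. Without the library labelled replicate 4, Abca9 was also called between vehicle-treated APP and WT mice (0.83, adjusted p = 0.028, edgeR).

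Among the lipoprotein and VPS10P family receptors, the Wnt co-receptor Lrp5 was higher in vehicle-treated APP than in WT mice, at 15.5 ± 1.6 against 9.36 ± 1.3 CPM (log2 difference 0.72, adjusted p = 0.036, edgeR), and the values did not overlap. With JQ1 in APP mice 1 of the 22 genes on this list was higher, Lrp1b, a receptor related to Lrp1, at 57.9 ± 10.9 against 36.9 ± 6.8 CPM (log2 difference 0.65, adjusted p = 0.025, edgeR), and it kept an adjusted p of 0.044 without the library labelled replicate 4. The related Lrp1 itself had a difference of −0.33 in the same comparison. Lrp5 was also called between JQ1-treated APP and WT mice without the library labelled replicate 4 (adjusted p = 0.037, edgeR), and had an adjusted p of 0.11 with it.

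Of 43 genes of clathrin endocytosis and retromer, 1 was higher in vehicle-treated APP than in WT mice, Rin3, an activator of early endosomal Rab5 proteins, at 6.15 ± 1.48 against 2.32 ± 0.89 CPM (log2 difference 1.41, adjusted p = 0.0088, edgeR). It was also the 1 gene higher in JQ1-treated APP than in WT mice (1.04, adjusted p = 0.045, edgeR). The list had 0 calls between APP mice given JQ1 or vehicle, and its median there was 0.034 against −0.0011 over all genes. In young mice 0 genes of the 3 lists were called, out of 23, 19 and 42 tested.

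Most microglial markers were higher in APP mice. Of 12 microglial markers, 9 were higher in vehicle-treated APP than in WT mice (10 without the library labelled JQ1-treated APP replicate 4), beside 2.57% and 3.55% of all genes called. Trem2 had a log2 difference of 2.78 (adjusted p = 0.0083, edgeR), and the median of the list was 1.44. The summed level of these markers was 436.9 to 489.1 CPM in WT mice, 1002 to 2012 CPM in vehicle-treated APP mice and 486.1 to 1921 CPM in JQ1-treated APP mice. Of 12 astrocyte markers 2 were higher, Gfap and Sox9 (3, with Aqp4, without that library), and of 10 oligodendrocyte markers 0 were called. The astrocyte summed level was 4769 to 5161 CPM in WT mice, 6853 to 9948 CPM in vehicle-treated APP mice and 5625 to 10694 CPM in JQ1-treated APP mice. Gfap made up much of that rise, at 2681 CPM in vehicle-treated APP against 295.3 CPM in WT mice (means). The median log2 difference of the 12 astrocyte markers was 0.23. None of the markers on either list was at 0 throughout a group. Between APP mice given JQ1 or vehicle 0 of 12 markers on each list passed. The pyramidal neuron markers of CA1 were present in every library, with a summed level of 6391 to 10020 CPM, and 0 of 10 were called between vehicle-treated APP and WT mice, or 1 (Neurod6, log2 difference −0.50) without the library labelled JQ1-treated APP replicate 4. The part of the glial marker levels in the differences of Apoe, Clu and Abca1 was not tested.

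Within groups, Apoe and the summed microglial markers deviated from their group means with r = 0.88 over the 16 aged libraries and r = 0.80 without the library labelled JQ1-treated APP replicate 4. With the summed astrocyte markers Apoe had r = 0.68 (0.48 without that library). Apod had r = 0.75 with astrocyte and 0.67 with microglial markers (0.69 and 0.64 without that library). Abca1 followed the summed astrocyte markers, Gfap among them, (r = 0.91 with and without that library) more than the microglial ones (r = 0.54 and 0.37). Clu had r = 0.82 with astrocyte and 0.84 with microglial markers (0.72 and 0.75 without that library). Abcg1 had r = −0.55 and Sorl1 r = −0.48 with the microglial markers (−0.50 and −0.49 without that library). These correlations describe libraries that share depth and composition, and the difference between them was not tested.

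**Figure D5:**
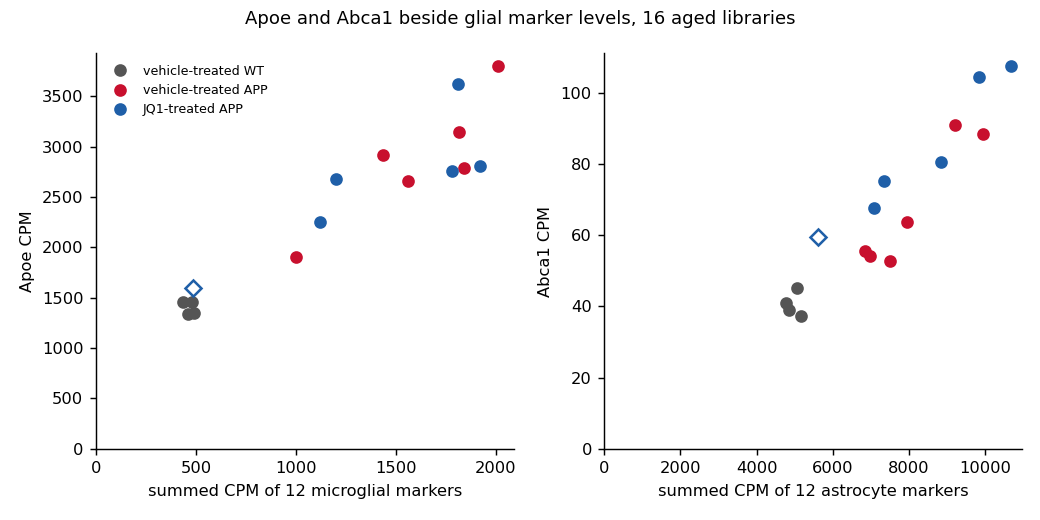
Left, CPM of Apoe against the summed CPM of 12 microglial markers, and right, CPM of Abca1 against the summed CPM of 12 astrocyte markers, 1 point per aged library. The open diamond is the library labelled JQ1-treated APP replicate 4, which lies beside the WT libraries on the left at 486.1 summed CPM and 1596 CPM of Apoe.

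Among the members themselves, deviations from the group means were most alike for Abca7 and Lrp1 (r = 0.86, and 0.83 without the library labelled JQ1-treated APP replicate 4), Clu and Apod (0.83 and 0.81) and Abcg1 and Sorl1 (0.75 and 0.73), over 16 and 15 libraries. The pairs furthest apart were Abcg1 with Apod (−0.63 and −0.57) and Abcg1 with Clu (−0.57 and −0.49). Across all tested genes, the 5 most like Apoe were Cryzl2 (r = 0.94), Itgb5 (0.92), Apobec1 (0.91), Lgals3bp (0.91) and Klrb1b (0.90). The 5 most like Clu were Gltp (0.97), Abhd4 (0.95), Vwa1 (0.95), Neat1 (0.95) and Ifi30 (0.94), and those most like Abca7 were Plxnb1 (0.91), Scrib (0.90), Igdcc4 (0.89), Pnpla6 (0.89) and Tab2 (0.88). Without the doubted library Cryzl2 (0.89) and Gltp (0.95) stayed first for Apoe and Clu, and Cluh (0.90) came first for Abca7, ahead of Plxnb1 (0.89).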

How the data were processed

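Total RNA of microdissected CA1 was sequenced on a HiSeq2000, and reads were aligned to mm10 (per the labels and the methods; the labels name CASAVA 1.8.2, STAR, HTSeq, TopHat, Cufflinks and Cuffdiff). For aged mice the authors deposited counts per Ensembl gene, made with STAR and HTSeq, and for young mice FPKM per locus, deposited from Cufflinks or Cuffdiff. The strand setting of counting was not given in the sources used here, and genes overlapping Lrp1, Sorl1 and Bin1 on the other strand had means of 2.56, 5.44 and 19.75 reads.

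Symbols, exonic lengths and coordinates came from GENCODE M21 (GRCm38). The counts of 16 aged libraries were fitted together in edgeR 4.0.16 (TMM, filterByExpr, robust quasi-likelihood test, 16962 genes) and log2(FPKM + 0.1) of 16 young libraries in limma 3.58.1 (trend, robust), for loci with FPKM of at least 0.5 in at least 8 libraries. P-values were adjusted by Benjamini-Hochberg over all genes tested, with a threshold of 0.05. Single genes were also tested by exact permutation of log2 values, two-sided. Both fits were tested on simulated data. DESeq2 1.42.0 was an alternative. The fold change in young mice is on the log2(FPKM + 0.1) scale.

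All groups came from the labels. No source says how mice were batched, and p-values set group differences against the spread between these samples. No 2 libraries held identical values. Genes and lists were chosen with earlier results of these data known. The text names all 10 members, the genes of 3 pathway lists that passed (some results of the receptor list and of the label check are not reported here), and the 5 genes most like Apoe, Clu and Abca7. Leaving out the library labelled JQ1-treated APP replicate 4 in combination with other settings was chosen after seeing the data.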

Additional observations from a re-analysis of the deposited data

How the results depend on the processing

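Of the 10 genes, the count called between APP mice given JQ1 or vehicle was 0, and 2 with DESeq2, beside 1.08% and 5.24% of all genes. Between vehicle-treated APP and WT mice it was 2, beside 2.57% of all genes. There it was 1 without the filter on low counts (1.27% of all genes) and 0 with a replicate block (0.206%). It was also 0 with that block plus GC and length offsets (0.171%). Clu, not called in the main fit, passed there in 5 of 11 alternative settings, DESeq2 on all libraries among them. Between JQ1-treated APP and WT mice the count was 3, and 1 (Abca1) with the replicate block, beside 2.06% and 0.124% of all genes. Clu was also lost there in a fit of only the groups compared (adjusted p = 0.068) and with the block plus offsets (0.086), and Sorl1 was added with offsets and without the library labelled JQ1-treated APP replicate 4 (0.032, edgeR). Leaving out 1 library at a time gave 0 to 1, 1 to 3 and 0 to 3 calls in these comparisons and 0 in young mice. The shares of all genes called in those fits were 0.384% to 2.57%, 0.889% to 3.55%, 0.0637% to 3.84% and 0% to 0.011%. The single call with JQ1 was Abca7 without JQ1-treated APP replicate 1 (adjusted p = 0.040, edgeR), beside 1.62% of all genes. Between JQ1-treated APP and WT mice, leaving out WT replicate 3, 4 or 5 left 0 calls, beside 0.144%, 0.174% and 0.0637% of all genes. There WT replicate 1 left 1 (0.883%), and JQ1-treated APP replicate 2 or 6 left 2 (1.08% and 1.31%). Between vehicle-treated APP and WT mice, 1 call was left without any 1 of the 4 WT mice, JQ1-treated APP replicates 3 or 6, or vehicle-treated APP replicates 1, 2 or 4. Those fits called 0.889% to 2.66% of all genes. The cause of these changes was not tested, and the part of the smaller number of samples in them was not tested either.

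Replicate numbers were not taken as pairs in the main fits. Correlations of the deviations of same-numbered samples were over 0.1 in 3 of 6, 0 of 4, 1 of 4 and 1 of 8 pairs (means 0.12, −0.050, −0.22 and 0.026) in the 4 comparisons. Samples with different numbers had means of −0.021, 0.020, 0.050 and −0.0037. Whether the numbers mark pairs was not tested, and between APP mice given JQ1 or vehicle the same-numbered mean was the higher. With the replicate block, calls over all genes went from 184 to 87, 436 to 35 and 349 to 21. DESeq2 called 749 genes with JQ1 in APP mice (372 higher, 377 lower), 798 between vehicle-treated APP and WT mice and 800 between JQ1-treated APP and WT mice. GC and length offsets called 42 with JQ1 (35 higher, 7 lower) against 105 higher and 79 lower, and moved the median gene to −0.067 and −0.076 in the comparisons with WT mice. No filter on low counts called 239 genes between JQ1-treated APP and WT mice, and a fit of only the groups compared called 679 between vehicle-treated APP and WT mice and 227 between JQ1-treated APP and WT mice.

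Small differences changed sign. With JQ1 in APP mice, GC and length offsets, alone and with the block, gave 0.091 and 0.091 for Apoe, 0.048 and 0.049 for Abcg1, −0.0045 and −0.044 for Apod and −0.12 and −0.11 for Picalm. Between vehicle-treated APP and WT mice they gave −0.078 and −0.11 for Abcg1, 0.057 and 0.082 for Picalm and −0.15 and −0.16 for Bin1, and the block alone gave −0.012 for Abcg1. Between JQ1-treated APP and WT mice they gave −0.031 and −0.064 for Abcg1 and −0.063 and −0.033 for Picalm, the block alone gave −0.046 for Abcg1 and −0.057 for Lrp1, the block with offsets −0.0070 for Lrp1, and no filter −0.0074 for Abcg1.

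Without the library labelled JQ1-treated APP replicate 4, offsets gave 0.18 for Apoe and −0.12 for Picalm with JQ1 in APP mice, −0.079 for Abcg1, 0.057 for Picalm and −0.15 for Bin1 between vehicle-treated APP and WT mice, and 0.013 for Abca7, −0.091 for Abcg1 and −0.067 for Picalm between JQ1-treated APP and WT mice. The block without it gave 0.026 for Apoe with JQ1 in APP mice, −0.038 for Abcg1 between vehicle-treated APP and WT mice, and −0.12 for Abcg1 and −0.0070 for Lrp1 between JQ1-treated APP and WT mice. DESeq2 without it gave −0.034 for Abcg1 in the last comparison, and leaving out WT replicate 4 as well gave 0.0050 for Abca7 and −0.057 for Abcg1.

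Leaving out 1 library at a time, signs changed within −0.072 to 0.041 for Abcg1, −0.11 to 0.024 for Sorl1 and −0.20 to 0.24 for Apod with JQ1 in APP mice. The ranges were −0.041 to 0.082 for Abcg1, −0.044 to 0.023 for Picalm and −0.0072 to 0.042 for Bin1 between vehicle-treated APP and WT mice, and −0.032 to 0.041 for Abcg1 and −0.055 to 0.095 for Lrp1 (0.11 without both doubted libraries) between JQ1-treated APP and WT mice. Abca7 kept its sign there, from −0.18 to −0.0094, in the fits without 1 library. In young mice they were −0.041 to 0.040 for Apoe, −0.026 to 0.012 for Clu, −0.010 to 0.10 for Abca7, −0.019 to 0.076 for Lrp1, −0.055 to 0.037 for Sorl1, −0.074 to 0.069 for Apod and −0.020 to 0.033 for Bin1.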
